A study of Mus musculus with 2 samples.

Results

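The nuclear-encoded genes of the mitochondrial respiratory chain were followed across the barcodes of brown adipose tissue. Members were all genes in the deposited feature list with symbols starting Nduf, Uqcr, Cox4i, Cox5, Cox6, Cox7, Cox8 or Atp5, plus Sdha, Sdhb, Sdhc, Sdhd and Cycs. They were 94 of 31053 genes: 38 complex I (NADH dehydrogenase) genes, 8 complex I assembly factors (Ndufaf), the 4 complex II (succinate dehydrogenase) subunits, 8 complex III (cytochrome bc1) genes, cytochrome c, 18 complex IV (cytochrome c oxidase) genes and 17 ATP synthase entries. The ATP synthase entries held 2 identifiers named Atp5o, and Atp5s, an accessory gene. The rule reads gene symbols and no measured values.

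The material was brown adipose tissue of C57BL/6 mice, an inbred laboratory strain; the labels name no allele or agent besides the cold. The mice of the TN group were kept at thermoneutrality, warm enough that holding body temperature costs no extra heat. Those of the 1cyc group had been through a single transient spell of acute cold and were sampled 4 days later. Nuclei of 5 mice were pooled for each group, sorted for DNA content with DAPI and sequenced as 1 droplet library per group; the sources used here state neither the age of the mice nor the mouse behind each nucleus. With 1 library per condition no test was possible, and an effect of the cold cannot be told apart from a difference between the libraries.

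Brown adipocytes burn fatty acids in densely packed mitochondria and release the energy as heat. Complexes I and II pass electrons through coenzyme Q, complex III, cytochrome c and complex IV to oxygen, and complexes I, III and IV pump protons that ATP synthase or the uncoupling protein Ucp1 lets back in. Nearly all subunits are encoded in the nucleus, translated in the cytosol and joined in the organelle with a few mitochondrially encoded subunits. Brown fat is known for its use of the heart and muscle isoforms Cox7a1 and Cox8b and for a low content of ATP synthase, which is set by its membrane subunit c (Atp5g1, Atp5g2, Atp5g3).

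Upstream sequences of 7 genes to which the results below return are shown here. They come from RefSeq, assembly GRCm38.p6, and 76 of the 94 members matched an entry there (75 distinct genes). Windows of 250 bases before to 50 after each start were searched on both strands for 5 motifs. These were the NRF1 palindrome (its letters are the capitals in the lines of Atp5g2 and Cox6a1 below), AAGGTCA (found in sites of the estrogen-related receptors, ERR), CCGGAAG (ETS factors and GABP), AAGATGG (YY1) and TGACGTCA (the cAMP response element, CRE). NRF1, the ERRs and GABP are the regulators classically tied to respiratory chain promoters. Genes with a motif in any of their windows were counted. The NRF1 motif was held by 9.33% of member genes and 1.05% of the 26950 other genes. Among the other genes measured in adipocyte nuclei it was held by 2.76%. For these 3 sets in the same order, the ERR motif was held by 10.7%, 5.37% and 3.92%. The ETS motif was held by 24.0%, 9.89% and 20.2%, the last close to the members. The YY1 motif was held by 14.7%, 7.26% and 8.82%, and the CRE by 6.67%, 2.02% and 3.72%. None of the 5 motifs was found for 36 of the 75 member genes. A match is a match of letters, not a bound site, and its absence says only that these letters are not in the window.

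The heart and muscle isoforms Cox8b and Cox7a1 are set beside their partners Cox8a and Cox7a2 because the results turn on these pairs. Each line is the 150 bases just before the start, 5′ to 3′, and holds none of the 5 motifs; in Cox8a an ETS motif begins just before the start and runs past it.
Cox8b (chr7:140900447-140900596, minus strand): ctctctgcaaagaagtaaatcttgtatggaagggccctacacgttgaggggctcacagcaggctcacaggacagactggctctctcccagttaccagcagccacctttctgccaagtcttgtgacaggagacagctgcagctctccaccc
Cox8a (chr19:7217617-7217766, minus strand): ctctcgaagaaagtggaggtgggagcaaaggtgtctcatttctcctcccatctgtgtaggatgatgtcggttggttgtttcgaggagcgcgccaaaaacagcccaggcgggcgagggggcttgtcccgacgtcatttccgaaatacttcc
Cox7a1 (chr7:30184021-30184170, plus strand): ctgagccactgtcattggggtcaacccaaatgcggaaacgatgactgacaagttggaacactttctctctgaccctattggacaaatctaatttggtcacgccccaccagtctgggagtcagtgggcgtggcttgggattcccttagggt
Cox7a2 (chr9:79759854-79760003, minus strand): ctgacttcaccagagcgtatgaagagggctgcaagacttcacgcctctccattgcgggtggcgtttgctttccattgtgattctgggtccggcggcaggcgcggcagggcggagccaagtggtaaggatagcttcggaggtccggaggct

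Among members with at least 50 UMIs, Atp5g3 had the highest ratio between the libraries in adipocyte nuclei by the interval bound nearest to 1, and Atp5g2 is its partner for the same protein. The windows below show the ERR motif of Atp5g3, which reads TGACCTT on this strand, and the NRF1 motif of Atp5g2, which is shared letter for letter by Cox6a1 (complex IV). The ERR motif was also held by Atp5e, Atp5k, Atp5l, Ndufb2, Ndufb4, Ndufs5 and Sdhd, whose ratios are given further below. Capitals mark the motif.
Atp5g3 (chr2:73911349-73911398, minus strand): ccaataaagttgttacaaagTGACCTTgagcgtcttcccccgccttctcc
Atp5g2 (chr15:102671060-102671109, minus strand): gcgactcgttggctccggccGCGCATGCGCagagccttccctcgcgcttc
Cox6a1 (chr5:115349091-115349140, minus strand): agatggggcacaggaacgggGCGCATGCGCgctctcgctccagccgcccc

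Barcodes were put in 3 classes, and levels are CPM, the UMIs of a gene or gene group per 1e6 UMIs of the summed class without mt- genes. Adipocyte nuclei held at least 4 UMIs (unique molecular identifiers, each counting 1 captured molecule) of Pparg, Acsl1, Pde3b and Ppara and under 5% mitochondrially encoded (mt-) UMIs. Other nuclei held fewer than 4 such UMIs at the same mt- limit, and high-mt barcodes held at least 20% mt- UMIs. TN gave 1081, 259 and 84 barcodes in these classes and 1cyc gave 912, 172 and 2275. Median UMIs per barcode in the adipocyte class were 873 in TN and 966.5 in 1cyc, in the high-mt class 715.5 and 328, and the lowest deposited barcode held 500 and 262. The adipocyte gate was an edge on a range, with 61 TN nuclei at 3 UMIs and 45 at 4, and 53 and 49 in 1cyc. A list of 14 adipocyte markers that the gate did not use, all detected, summed to 7636 and 9945 CPM in adipocyte nuclei, 1698 and 2548 CPM in other nuclei and 10289 and 9943 CPM in high-mt barcodes of TN and 1cyc. In TN high-mt barcodes Fabp4 alone made up 7744 CPM of that sum, against 1738 CPM in TN adipocyte nuclei, and most other markers were lower there, such as Plin1 (93.1 against 441 CPM), Cidec (62.1 against 640 CPM) and Acaca (419 against 1340 CPM). The libraries shared 6 barcode sequences, and no doublet caller was run. The label of the adipocyte class held for most but not all of its nuclei: in 67 TN and 32 1cyc nuclei another marker list had more UMIs than the adipocyte list, and the sum ratios are given with and without them, while bins by mt- share and splits of the class include them.

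Values in parentheses after a level, ratio or share are exact 95% intervals for counting error only, and hold nothing of the spread between mice or library preparations. A gene was measured in a comparison when it had at least 50 UMIs over its 2 sums. A UMI was seen for 90 of the 94 members in both libraries. The 4 members listed at 0 in every barcode were Cox4i1, Ndufa13, Cox6a2 and Cox8c.

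Of these, Cox6a2 (chr7:128205435-128206387), the heart and muscle isoform of subunit VIa, and Cox8c (chr12:102899316-102900526), known from testis, do not overlap another gene on their strand in GENCODE M21. Cox4i1 (chr8:120668222-120674207, plus strand), the ubiquitous subunit IV, lies wholly inside the gene model Gm20388 on the same strand, and Ndufa13 (chr8:69894180-69902558, minus strand), a membrane subunit of complex I, lies wholly inside Yjefn3. Gm20388 held 935 UMIs in TN and 1039 in 1cyc, or 382 and 508 CPM in adipocyte nuclei, and Yjefn3 held 7 and 6 UMIs. Among all protein-coding genes inside another gene of the same strand, 416 of 417 were listed at 0 (99.8%), against 5191 of 21480 not inside one (24.2%). The zeros of Cox4i1 and Ndufa13 therefore stand with those of nearly every gene so placed, and no level of theirs can be read from these counts. The last 150 bases of 8 members (Ndufb2, Ndufb6, Ndufaf2, Uqcrc2, Cox5a, Cox7c, Atp5g2 and Atp5h) have a copy elsewhere of at least 98% identity, and the 2 Atp5o identifiers overlap, so their counts are uncertain.

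Adipocyte nuclei held more respiratory chain transcripts than other nuclei in both libraries. All members summed to 3638 CPM (3529 to 3749, 4230 UMIs) in TN adipocyte nuclei and 1737 CPM (1622 to 1858, 848 UMIs) in TN other nuclei, a ratio of 2.09 (1.94 to 2.26). In 1cyc the sums were 4139 CPM (4012 to 4269, 4018 UMIs) and 1786 CPM (1597 to 1990, 328 UMIs), a ratio of 2.32 (2.07 to 2.60). Without adipocyte nuclei led by another marker list the ratios were 2.18 (2.02 to 2.35) and 2.35 (2.10 to 2.64). Complex II showed the widest gap in both libraries, 2.61-fold (2.05 to 3.35) in TN and 3.03-fold (2.08 to 4.57) in 1cyc, and complex IV the narrowest of the subunit groups, 1.57-fold (1.32 to 1.88) and 1.83-fold (1.38 to 2.47).

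**Figure D1:**
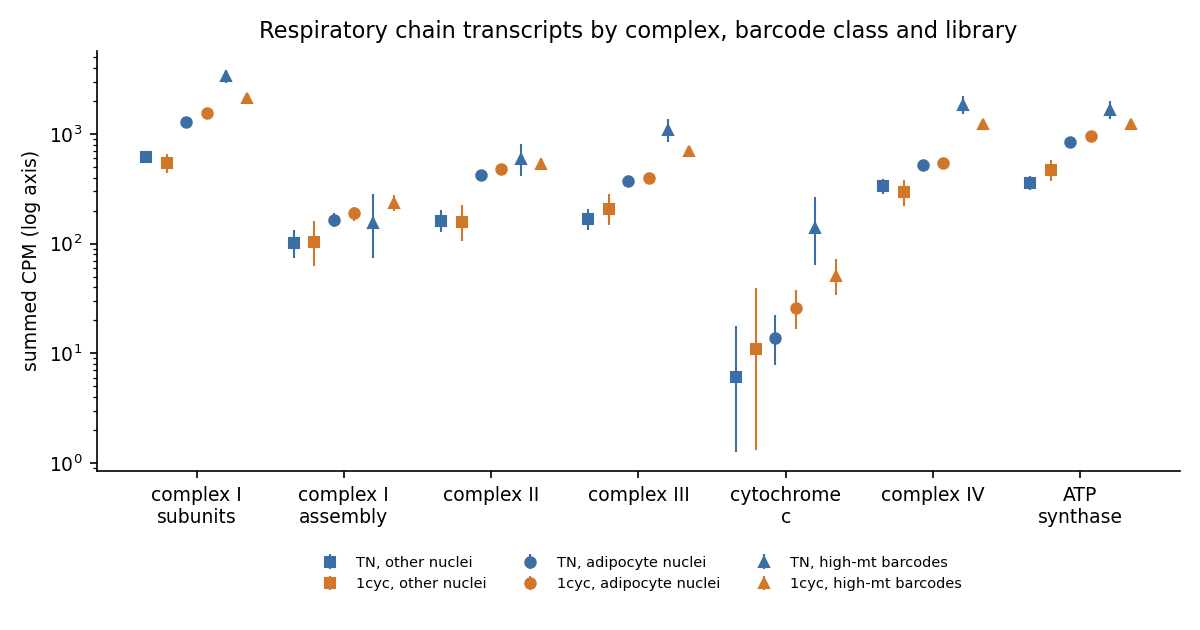
Summed CPM of each complex (log axis) in other nuclei (squares), adipocyte nuclei (circles) and high-mt barcodes (triangles) of TN (blue) and 1cyc (orange), with exact 95% Poisson intervals. Haemoglobin genes are kept in the scale, and the gap between adipocyte and other nuclei depends on this. On this scale adipocyte nuclei lie above other nuclei for every complex. The order per complex without haemoglobin genes is not shown. For complex IV the sum goes from 332 CPM in TN other nuclei to 520 CPM in adipocyte nuclei and 1831 CPM in high-mt barcodes.

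The size of that gap depended on the scale. Haemoglobin transcripts, the product of red cell precursors, made up 436732 CPM of TN and 320410 CPM of 1cyc other nuclei, against 37509 and 2787 CPM in adipocyte nuclei. When haemoglobin and ribosomal protein genes were left out of the scale together with mt- genes, the ratio of adipocyte to other nuclei was 1.22 (TN) and 1.57 (1cyc). Of 32 members measured in TN, 23 were at least 1.5-fold higher in adipocyte nuclei and 0 were as much lower, against 63.5% higher and 11.1% lower of all 4703 genes measured. In 1cyc 22 of 26 were higher to that degree and 0 lower, against 60.8% and 8.23% of 3877 genes. The median log2 ratio of the members was 1.27 in TN and 1.35 in 1cyc, beside 0.86 and 0.81 for all genes.

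Catalytic and core subunits were among the members that stood highest by the interval bound nearest to 1. The ratios of single members here and in the next paragraph keep haemoglobin genes in the scale. Atp5b, the catalytic beta subunit of ATP synthase, had 125 CPM in TN adipocyte and 20.5 CPM in TN other nuclei, 6.09-fold (3.22 to 13). In 1cyc its levels were 152 and 54.4 CPM, 2.80-fold (1.48 to 5.96), with intervals that overlap those of TN. Ndufs3, a core complex I subunit of the arm that holds the iron-sulfur clusters, was 5.92-fold (3.13 to 12.6) higher in TN, at 121 against 20.5 CPM. The same gene was 6.81-fold (2.60 to 25.3) higher in 1cyc, at 148 against 21.8 CPM. Sdhc, a membrane anchor of complex II, was at 123 and 34.8 CPM in TN, 3.53-fold (2.13 to 6.23), and at 137 and 27.2 CPM in 1cyc, 5.03-fold (2.10 to 15.8). Uqcrc2, a complex III core protein, was 5.52-fold (3.14 to 10.6) higher in TN and 2.89-fold (1.42 to 6.83) in 1cyc. Atp5s had 57 UMIs in 1cyc adipocyte nuclei and 0 in 1cyc other nuclei, that is 58.7 CPM against a value whose upper limit is 20.1 CPM. Like the other members named in this paragraph, it passed the minimum of UMIs through adipocyte nuclei alone.

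Small complex IV subunits were the members with ratios nearest to 1 on this scale. Without haemoglobin and ribosomal protein genes in the scale the sum ratios were lower (above). That these members lay near 1 therefore holds for this scale only. Cox6a1 was at 38.7 CPM in TN adipocyte and 41.0 CPM in TN other nuclei, a ratio of 0.945 (0.547 to 1.69). Cox8a was at 57.6 and 53.3 CPM (1.08, 0.679 to 1.77) and Cox7c at 37.0 and 34.8 CPM (1.06, 0.593 to 1.99). In 1cyc the lowest measured member was Cox6b1, at 59.7 and 59.9 CPM (0.998, 0.519 to 2.11).

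Other nuclei were a mixture. Nuclei with at least 3 UMIs of 1 marker list, and more than of any other, were set apart by these UMIs alone. The fibroblast or progenitor gate (133 nuclei in both libraries) held 1724 CPM of members (1530 to 1936) and the skeletal muscle gate (40 nuclei) 2528 CPM (2092 to 3027). The endothelial gate (36 nuclei) held 4372 CPM (3770 to 5044) and the macrophage or monocyte gate (17 nuclei) 4451 CPM (3629 to 5403). The macrophage or monocyte gate held 5106 CPM (4096 to 6291) in TN and only 14 member UMIs, 2463 CPM (1347 to 4133), in 1cyc. Sums of the fibroblast and muscle gates thus lay below those of adipocyte nuclei, and those of the endothelial gate did not. Within adipocyte nuclei, the sums with and without a Ucp1 UMI had intervals that overlapped: 3761 CPM (3400 to 4151) in 108 TN nuclei with a Ucp1 UMI and 3625 CPM (3512 to 3742) in 973 without, and 4207 CPM (3939 to 4487) in 177 and 4119 CPM (3975 to 4267) in 735 1cyc nuclei. Nuclei with at least 2 UMIs of Nnat or Slc7a10, a gate chosen after the data were seen, held 2212 CPM (1985 to 2457) in 99 TN nuclei and 1840 CPM (1455 to 2297) in 27 1cyc nuclei. The remaining adipocyte nuclei held 3859 CPM (3739 to 3983) and 4244 CPM (4112 to 4378).

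Member UMIs were spread over most nuclei. A member UMI was found in 1027 of 1081 TN and 866 of 912 1cyc adipocyte nuclei, in 83.0% and 74.4% of other nuclei and in 81.0% and 75.6% of high-mt barcodes, at unequal depth. After thinning to 200 non-mt UMIs, the shares were 51.0% (47.9 to 54.0) and 55.8% (52.5 to 59.1) of adipocyte nuclei and 32.0% (26.4 to 38.1) and 34.9% (27.8 to 42.5) of other nuclei. High-mt barcodes gave 53.8% (42.2 to 65.2) in TN with 6 shallower barcodes left out, and 67.2% (64.9 to 69.5) in 1cyc with 688 left out.

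The study's own comparison is that of mice after cold with mice at thermoneutrality. In adipocyte nuclei the member sum was 1.14-fold (1.09 to 1.19) higher in 1cyc, at 4139 against 3638 CPM. Complex I subunits stood highest of the groups with at least 100 UMIs per library, at 1560 against 1295 CPM (1.20, 1.12 to 1.29). ATP synthase was at 952 (1cyc) and 851 CPM (TN, ratio 1.12, 1.02 to 1.23). Complex II (1.13, 0.995 to 1.29), complex III (1.07, 0.931 to 1.23), complex I assembly factors (1.15, 0.932 to 1.41) and complex IV (1.03, 0.918 to 1.16) had intervals that held 1. Cycs, the electron carrier between complexes III and IV, was at 13.8 CPM (TN) and 25.8 CPM (1cyc, ratio 1.87, 0.961 to 3.75).

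Of the 48 members measured here, 36 were above and 12 below a ratio of 1, and 59.4% of all 5636 genes measured were above 1. At least 1.5-fold higher were 7 members and as much lower were 4, against 11.0% and 7.63% of all genes, so the members' shares, in each direction, were near the background. With TMM factors, which centre the bulk of genes on equality, 4 were higher and 4 lower. Their median log2 ratio was 0.17 and that of all genes 0.09. By complex, 15 of 18 complex I subunits measured were above 1 (median log2 0.35), 3 of 3 complex II subunits (0.16), 3 of 4 complex III subunits (0.28), 5 of 9 complex IV subunits (0.02) and 7 of 11 ATP synthase genes (0.08).

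**Figure D2:**
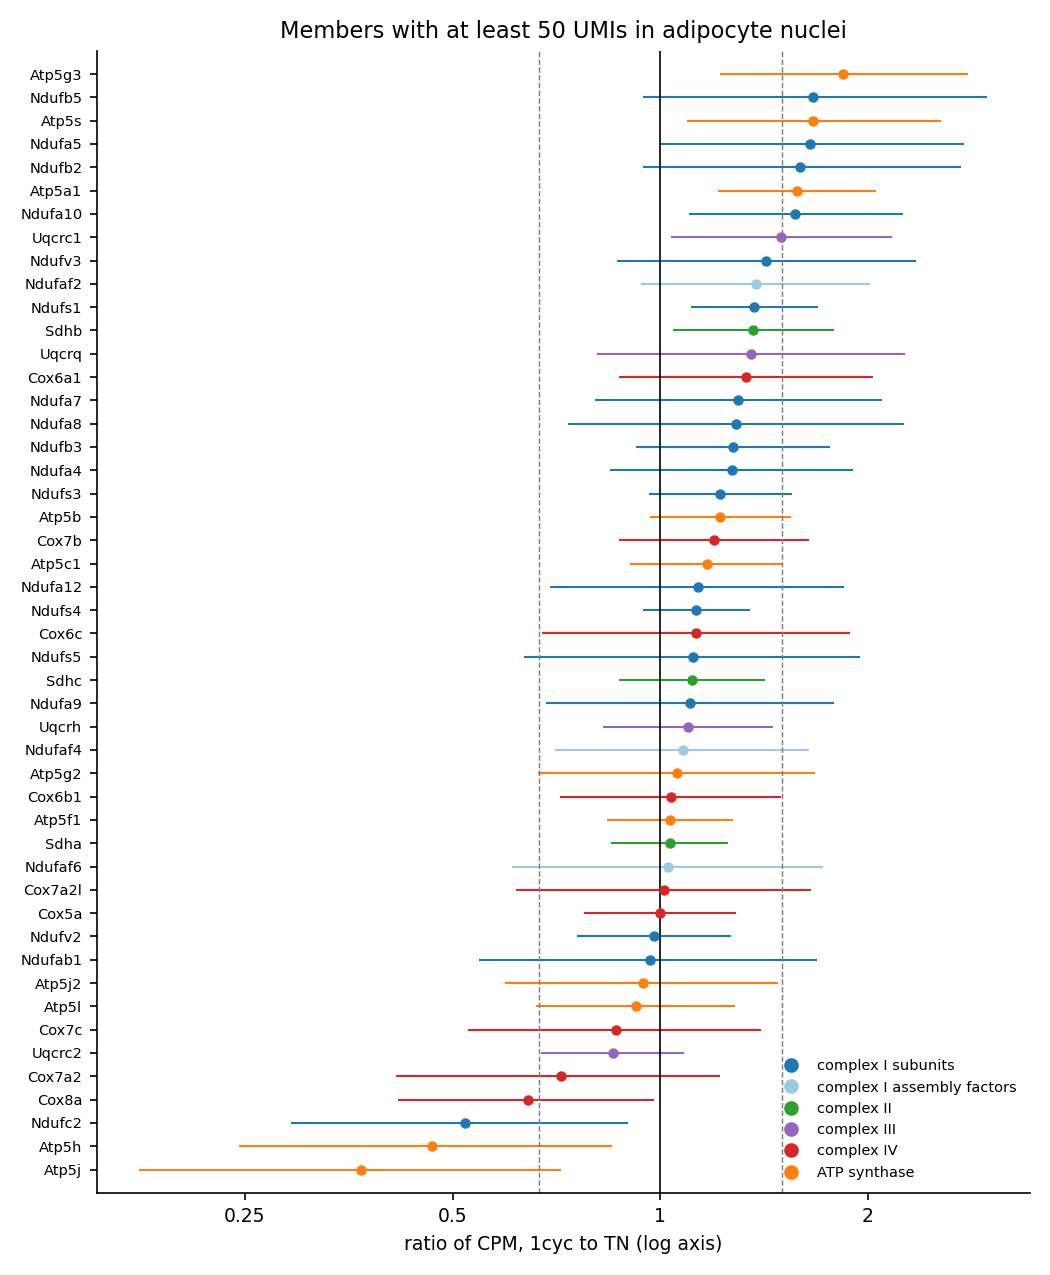
Ratio of CPM in 1cyc to TN adipocyte nuclei (log axis) for the 48 members with at least 50 UMIs, with exact conditional binomial 95% intervals, coloured by complex; the dashed lines mark 1.5-fold in each direction. Most points lie right of 1, from Atp5g3 at 1.84 down to Atp5j at 0.369.

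Among measured members, the highest ratios by the interval bound nearest to 1 were in ATP synthase and complex I. Atp5g3 (chr2:73908447-73911326), 1 of 3 genes for subunit c, had 41 UMIs or 35.3 CPM in TN and 63 UMIs or 64.9 CPM in 1cyc, 1.84-fold (1.22 to 2.80). Atp5a1, the alpha subunit beside the catalytic beta subunit, was at 89.4 and 141 CPM, 1.58-fold (1.21 to 2.06). Ndufs1, the largest core subunit of complex I, was at 144 and 197 CPM, 1.37-fold (1.11 to 1.70). All 3 had intervals above 1, but they were picked from the measured members by that very bound, so this is no support of its own.

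Ndufa10, an accessory complex I subunit, was at 49.9 and 78.3 CPM (1.57, 1.10 to 2.25), and Ndufa5, another, at 24.9 and 41.2 CPM (1.65, 0.999 to 2.76). Atp5s was at 35.3 and 58.7 CPM (1.67, 1.10 to 2.55). Sdhb, the iron-sulfur subunit of complex II, was at 92.0 and 126 CPM (1.37, 1.04 to 1.79), while Sdha, the flavin subunit of the same complex, was at 199 and 205 CPM (1.03, 0.849 to 1.25). The core proteins of complex III lay on either side of 1. Uqcrc1 was at 48.2 and 72.1 CPM (1.497, 1.04 to 2.17) and Uqcrc2 at 147 and 126 CPM (0.855, 0.672 to 1.08). Ndufv1, which binds NADH, had 14 and 27 UMIs and so was not measured by the rule (12 and 27.8 CPM, 2.31, 1.17 to 4.77), and its neighbour in the complex Ndufv2 was at 119 and 116 CPM (0.981, 0.758 to 1.27). Uqcrfs1, the Rieske protein of complex III (15 and 13 UMIs), also stayed under the minimum. Atp5b was at 125 and 152 CPM (1.22, 0.966 to 1.55), Ndufs4 at 224 and 253 CPM (1.13, 0.945 to 1.35) and Cox5a, the subunit Va of complex IV, at 120 and 119 CPM (0.9996, 0.774 to 1.29).

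By the interval bound nearest to 1, Atp5j, Atp5h, Ndufc2 and Cox8a stood lowest, followed by Uqcrc2 (above) and Cox7a2. Atp5j, the coupling factor F6 of the ATP synthase stalk, had 39 UMIs or 33.5 CPM in TN and 12 UMIs or 12.4 CPM in 1cyc (0.369, 0.176 to 0.718). Atp5h, stalk subunit d, was at 35.3 and 16.5 CPM (0.467, 0.245 to 0.851). Ndufc2, a small membrane subunit of complex I, was at 39.6 and 20.6 CPM (0.521, 0.292 to 0.898). These 3 ratios were below 1, while the sums of their complexes were above 1. Cox8a was at 57.6 and 37.1 CPM (0.644, 0.417 to 0.979) and Cox7a2 at 34.4 and 24.7 CPM (0.719, 0.414 to 1.22). Among other small complex IV subunits and isoforms with intervals that held 1, Cox7a2l was at 33.5 and 34.0 CPM (1.01, 0.618 to 1.65), Cox7b at 71.4 and 85.5 CPM (1.20, 0.873 to 1.64), Cox6a1 at 38.7 and 51.5 CPM (1.33, 0.872 to 2.04) and Cox6b1 at 57.6 and 59.7 CPM (1.04, 0.717 to 1.496). Ndufa4, counted in the complex I sums by its symbol, was at 43.0 and 54.6 CPM (1.27, 0.846 to 1.91).

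Nuclei that passed the adipocyte gate but had more UMIs of another marker list were then left out. They held 343 member UMIs of 4230 (TN) and 81 of 4018 (1cyc), with 43267 and 2479 haemoglobin UMIs. In TN a single barcode of 7734 UMIs held 132 member UMIs, 235 UMIs of the macrophage or monocyte list and 0 of the adipocyte list. The macrophage or monocyte list summed to 265 (TN) and 21.6 CPM (1cyc) in adipocyte nuclei, with Cd163 and Lyz2 at 0 in 1cyc. Without the nuclei led by another list the member sum ratio was 1.11 (1.063 to 1.16). Of 47 members then measured, 32 were above 1, 6 were at least 1.5-fold higher and 2 as much lower, against 9.19% and 6.49% of all 5331 genes. Atp5g3 was then at 1.81 (1.18 to 2.80), Atp5a1 at 1.48 (1.13 to 1.94), Atp5j at 0.347 (0.165 to 0.678) and Ndufc2 at 0.523 (0.291 to 0.910). The intervals of Atp5h (0.567, 0.289 to 1.07), Cox8a (0.670, 0.430 to 1.03), Sdhb (1.30, 0.984 to 1.72) and Uqcrc1 (1.36, 0.938 to 1.99) then held 1. The other genes with the ERR motif of Atp5g3 were Ndufb2 at 1.58, Atp5e at 1.10, Sdhd at 0.988 and Ndufb4 at 0.966. Ndufs5 was at 0.946, Atp5l at 0.870 and Atp5k at 0.760. All of these had intervals that held 1, several on few UMIs, and a part of the motif in the ratios was not tested.

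The mt- share of a nucleus moved with the ratio. Adipocyte nuclei had a median mt- share of 2.81% in TN and 1.99% in 1cyc. In nuclei under 1% mt- UMIs (64 TN, 151 1cyc) the member sums were 2653 and 4073 CPM, 1.54-fold (1.36 to 1.73) higher in 1cyc. Between 1 and 2% they were 3407 and 4229 CPM, 1.24-fold (1.15 to 1.34). From 2 to 5% they were 3936 and 4095 CPM, 1.04-fold (0.977 to 1.11). The TN sums thus went up with the mt- share, and the 1cyc sums stayed within 4073 to 4229 CPM. With the limit for nuclei set at 2%, the ratio was 2.87 for Atp5g3, 2.69 for Atp5s and 0.976 for Atp5j, and Cox8a turned to 1.23 (0.637 to 2.46). The bins include the nuclei led by another marker list and keep haemoglobin genes in the scale. In the whole class the red cell list led in 18 TN nuclei with 43252 haemoglobin UMIs and in 7 1cyc nuclei with 2475. The parts of the mt- share and of haemoglobin in the result were not tested.

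The heart and muscle isoforms, whose upstream bases are shown above, rested on few UMIs. In adipocyte nuclei Cox8b and Cox7a1 were under the minimum and so not measured by the rule. Cox8b had 12 UMIs or 10.3 CPM (TN) and 26 UMIs or 26.8 CPM (1cyc) in adipocyte nuclei, a ratio of 2.60 (1.26 to 5.65), while Cox8a had 67 and 36 UMIs. The share of Cox8b among the UMIs of the pair was 15.2% (8.10 to 25) in TN and 41.9% (29.5 to 55.2) in 1cyc. These shares are of UMIs and are not corrected for transcript length. In high-mt barcodes the Cox8b share was 36.4% (17.2 to 59.3) and 45.2% (36.4 to 54.3), with intervals that overlap. In other nuclei it was 1 of 27 UMIs (3.70%, 0.0937 to 19.0) in TN and 0 of 9 in 1cyc, which allows up to 33.6%.

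Cox7a1 had 12 and 17 UMIs against 40 and 24 for Cox7a2, a share of 23.1% (12.5 to 36.8) in TN and 41.5% (26.3 to 57.9) in 1cyc adipocyte nuclei, with intervals that overlap. In high-mt barcodes the share was 42.1% (20.3 to 66.5) and 57.1% (45.4 to 68.4). Cox7a1 and Cox8b are also muscle genes, and the skeletal muscle marker list summed to 421 (TN) and 776 CPM (1cyc) in adipocyte nuclei and to 264 and 851 CPM in high-mt barcodes. The 40 nuclei of the skeletal muscle gate, with 46683 non-mt UMIs, held 0 UMIs of Cox7a1 and 0 of Cox8b. They also held 0 of Cox7a2 and 1 of Cox8a. The part of muscle transcripts in these shares was not tested. Without adipocyte nuclei led by another list Cox8b was at 2.38 (1.16 to 5.17) and Cox7a1 at 1.56 (0.700 to 3.57).

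**Figure D3:**
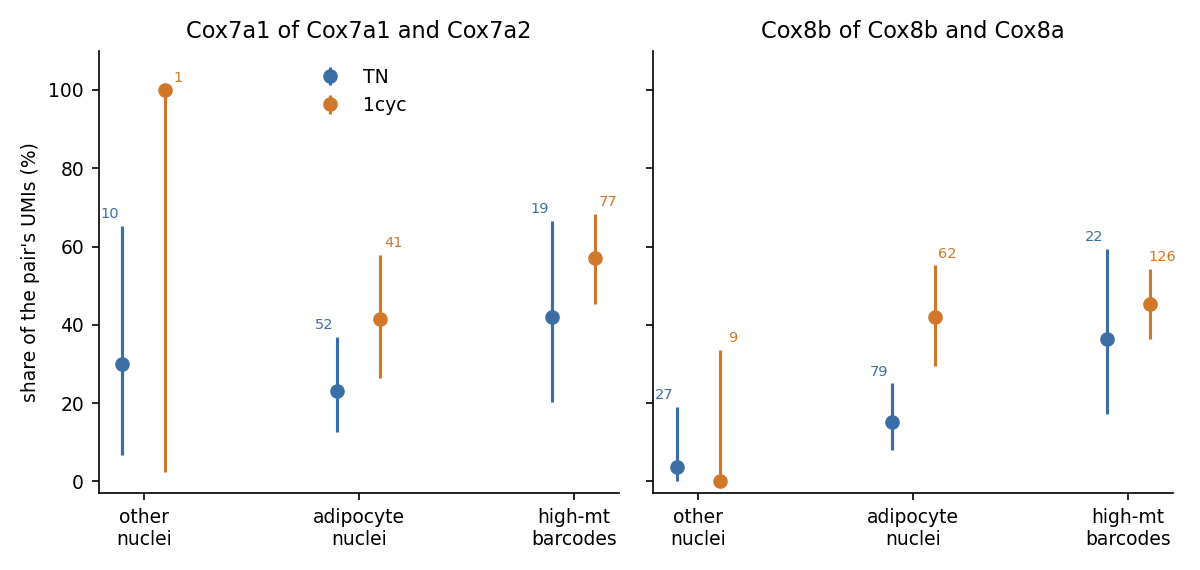
Share of Cox7a1 among the UMIs of Cox7a1 and Cox7a2 (left) and of Cox8b among those of Cox8b and Cox8a (right) in each class of TN (blue) and 1cyc (orange), with exact Clopper-Pearson 95% intervals; the numbers are the UMIs of the pair. In adipocyte nuclei the Cox8b share is 15.2% in TN and 41.9% in 1cyc, and the Cox7a1 intervals of the libraries overlap.

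Among the subunit c genes, Atp5g3 made up 48.8% (37.7 to 60.0) of the Atp5g3 and Atp5g2 UMIs in TN and 62.4% (52.2 to 71.8) in 1cyc adipocyte nuclei, and 79.0% (69.7 to 86.5) in 1cyc high-mt barcodes. Atp5g1, the isoform known as the rate-limiting one in brown fat, had only 5 UMIs in all of TN and 2 in 1cyc. Other tissue-restricted isoforms were near 0 as well: Cox4i2 had 4 and 2 UMIs, Cox6b2 5 and 9, Cox7b2 1 and 1, and Ndufa4l2 8 and 3. Cox6b2 made up 6.94% (2.29 to 15.5) of Cox6b2 and Cox6b1 UMIs in TN and 6.45% (1.79 to 15.7) in 1cyc adipocyte nuclei.

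Genes that serve the chain without belonging to it were read with the same rule, beside the values for all genes: 59.4% above 1, 11.0% at least 1.5-fold higher, 7.63% as much lower and a median log2 ratio of 0.09. None of the 5 lists held a measured gene at least 1.5-fold lower. Of 18 genes for coenzyme Q and electron entry, 12 were measured, 10 were above 1 in 1cyc and 3 were past 1.5-fold, with a median log2 ratio of 0.36. They were Coq10a (1.83, 1.22 to 2.76), Coq8a (1.51, 1.34 to 1.69), a kinase-like protein needed for coenzyme Q synthesis, and Gpd2 (1.502, 1.30 to 1.74), the mitochondrial glycerol phosphate dehydrogenase. Coq8a had 462 CPM at thermoneutrality and 695 CPM after cold. Of 12 transcriptional regulators, 9 were measured, 8 were above 1 and 2 were past 1.5-fold (median 0.46). Esrra, the gene of ERR alpha, was at 138 and 228 CPM (1.65, 1.34 to 2.04), Ppargc1b at 1617 and 2376 CPM (1.47, 1.38 to 1.56) and Ppargc1a at 206 and 296 CPM (1.43, 1.20 to 1.71). Nrf1 was at 165 and 171 CPM (1.04, 0.836 to 1.28) and Yy1 at 103 and 84.5 CPM (0.818, 0.610 to 1.09). Of 7 genes for ADP, ATP and phosphate exchange, 6 were measured, 5 were above 1 and 1 was past 1.5-fold (median 0.34). Ucp1, which lets protons bypass ATP synthase, was at 129 and 275 CPM (2.13, 1.74 to 2.62), and Slc25a4, the ADP/ATP carrier, at 36.1 and 39.1 CPM (1.08, 0.680 to 1.72). Complex III and IV partners and assembly genes gave 12 measured of 33, 9 above 1 and 4 at least 1.5-fold higher (median 0.23), among them Ttc19 (1.96, 1.45 to 2.67) and Lyrm7 (2.06, 1.23 to 3.52), both complex III assembly factors. Assembly genes of complexes I, II and V gave 11 measured of 17, with 6 above and 5 below 1 and 2 past 1.5-fold (median 0.00).

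In other nuclei the member sum was 1737 CPM in TN and 1786 CPM in 1cyc (1.03, 0.902 to 1.17). Only 2 members were measured, and 0 were past 1.5-fold in either direction, against 21.8% higher and 6.31% lower of 1695 genes. They were Ndufs4, a late-assembled complex I subunit (88.1 and 98 CPM, 1.11, 0.604 to 1.97), and Sdha (88.1 and 92.5 CPM, 1.05, 0.562 to 1.88). Without haemoglobin and ribosomal protein genes in the scale the sum ratio was 0.849.

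High-mt barcodes held the highest member sums, 8815 CPM in TN (8105 to 9571, 568 UMIs) and 6103 CPM in 1cyc (5906 to 6306, 3615 UMIs). Against adipocyte nuclei of the same library the TN ratio was 2.42 (2.22 to 2.65) and the 1cyc ratio 1.47 (1.41 to 1.54), or 2.33 (2.13 to 2.55) and 1.45 (1.39 to 1.52) without adipocyte nuclei led by another list. The class is defined by mt- transcripts, which are left out of this scale. Across all deposited barcodes the sum in TN went from 1298 CPM under 1% mt- UMIs to 3762 CPM at 2 to 5%, 7141 CPM at 20 to 30% and 23768 CPM in the 13 barcodes from 50%. In 1cyc it went from 3296 CPM to 3899, 5673 and, in 11 barcodes, 13304 CPM. Haemoglobin genes were kept in this scale. Of the 98 TN barcodes under 1%, the 64 adipocyte nuclei held 387 of 466 member UMIs, at 2653 CPM. Of the 173 in 1cyc, the 151 adipocyte nuclei held 953 of 984, at 4073 CPM. The part of haemoglobin in the first values was not tested. Neither series climbed at every step: the TN sum was 3498 CPM at 5 to 10% and the 1cyc sum stayed at 3899 to 4097 CPM from 1% to 20%.

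**Figure D4:**
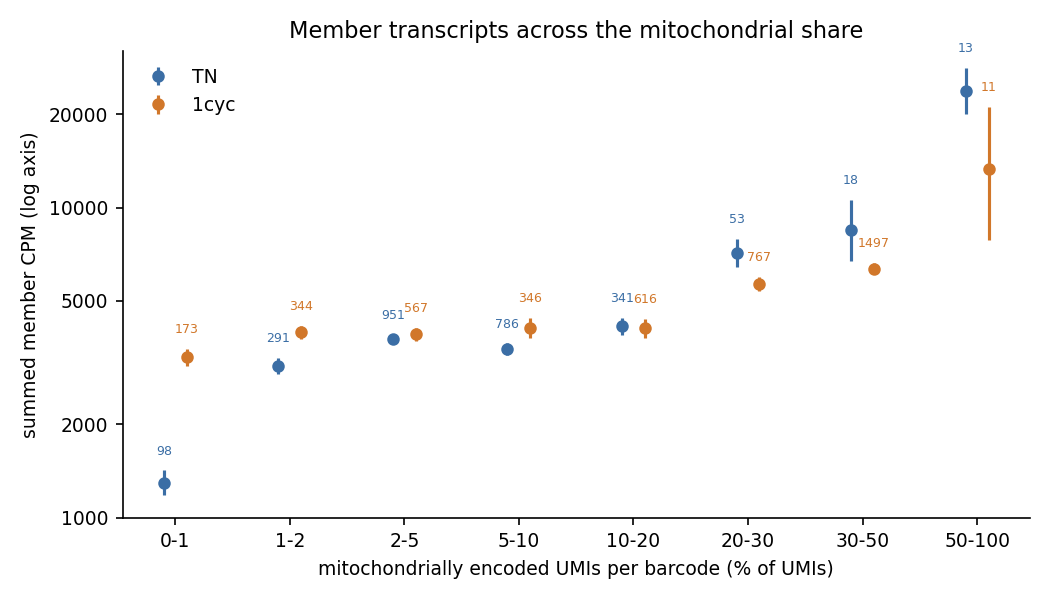
Summed member CPM (log axis), scaled without mt- genes, by the mt- share of barcodes in TN (blue) and 1cyc (orange), with exact Poisson 95% intervals and the number of barcodes above each point. Sums above 20% mt- UMIs lie over those from 2 to 10% in both libraries. With haemoglobin genes kept in the scale, the libraries differ most under 1%, at 1298 and 3296 CPM.

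Among the complexes, complex IV had the widest gap in both libraries. Its sum in high-mt barcodes was 3.52-fold (2.86 to 4.29) that of adipocyte nuclei in TN and 2.29-fold (2.05 to 2.57) in 1cyc. Complex II was at 1.40 (0.976 to 1.94) and 1.12 (0.971 to 1.30), and complex I assembly factors at 0.945 (0.446 to 1.78) and 1.24 (0.991 to 1.56). Cycs was at 10.2 (3.95 to 24.4) in TN on 9 high-mt UMIs and at 1.97 (1.12 to 3.49) in 1cyc. In 1cyc 51 members were measured, of which 25 had a 1.5-fold or higher level in high-mt barcodes and 2 as much lower, against 8.45% and 7.54% of 4922 genes, with a median log2 ratio of 0.52 beside -0.08. Complex IV accounted for 11 of the 25, and all 11 of its measured members were among them. Of these, Cox6c (32 UMIs in adipocyte nuclei and 71 in high-mt barcodes), Cox8a (36 and 69) and Cox8b (26 and 57) passed the minimum through high-mt barcodes alone. The minimum thus favoured members high in that class, and the count is no support of its own. In TN 15 of 28 were higher and 5 lower, against 20.6% and 35.4% of 4055 genes, with a median of 0.74 beside -0.20, and with TMM factors 12 were higher and 7 lower. The lists of assembly genes, coenzyme Q genes, exchange genes and regulators had medians below 0 in both libraries, from -1.15 to -0.02.

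In 1cyc Uqcr11, a small complex III subunit, was at 23.7 CPM in adipocyte nuclei and 137 CPM in high-mt barcodes, 5.77-fold (3.60 to 9.61). Atp5e, the epsilon subunit of ATP synthase, was at 16.5 and 91.2 CPM (5.53, 3.12 to 10.4), and Cox7a1 at 17.5 and 74.3 CPM (4.24, 2.38 to 7.92). In TN Cox7c was at 37.0 and 248 CPM (6.71, 3.53 to 12.2), Cox6a1 at 38.7 and 233 CPM (6.02, 3.11 to 11.0) and Cox7a2 at 34.4 and 171 CPM (4.96, 2.30 to 9.85). At the other end was Atp5c1, the gamma subunit that turns in the ATP synthase motor, at 128 and 77.7 CPM in 1cyc (0.608, 0.424 to 0.859). In TN Ndufs4 was at 224 and 124 CPM (0.553, 0.236 to 1.11), with an interval that held 1.

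The genomic span of a gene was not used to choose members or classes, and the ratios of measured members differed by it. In 1cyc the 25 measured members under 9489 bases had a median log2 ratio of 1.00 and the 26 longer ones 0.06, beside 0.47 and -0.09 for all other genes split at the same length. In TN the medians were 1.63 for 14 members under 9888 bases and 0.23 for the 14 longer ones, beside 0.21 and -0.22. The split was thus wider for members than for other genes, and no test of that difference was made. Cox8b, which spans 1502 bases, was at 3.59 (2.22 to 5.95) in 1cyc, and Ndufs4, which spans 100464 bases, at 1.01 (0.822 to 1.24). Cox8b, like the short genes Uqcr11 and Atp5e, passed the minimum of UMIs in 1cyc through high-mt barcodes alone. The minimum thus let short members into the 1cyc split because of their high-mt counts. Its part in the split was not tested. Other comparisons gave other splits. Between the libraries in high-mt barcodes, members under 9216 bases had a median of -0.80 and longer ones 0.28, beside 0.68 and 0.26 for other genes. For adipocyte against other nuclei in TN the medians were 0.61 below and 1.48 at or above 9535 bases, beside 0.59 and 0.87. Between the libraries in adipocyte nuclei they were 0.15 and 0.18, split at 10981 bases.

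**Figure D5:**
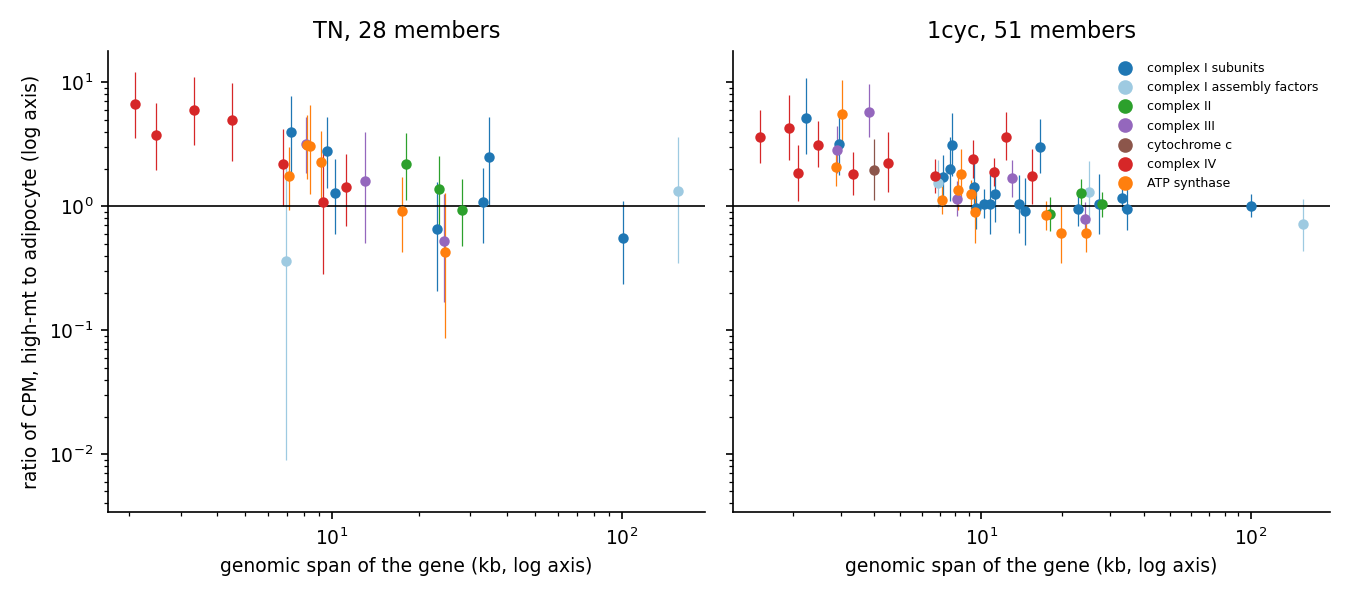
Ratio of CPM in high-mt barcodes to adipocyte nuclei (log axis) against the genomic span of each measured member (kb, log axis) in TN (left) and 1cyc (right), with exact 95% intervals, coloured by complex. Short complex IV genes such as Cox7c (6.71 in TN) lie high, and long genes such as Ndufs4 (0.553 in TN and 1.01 in 1cyc) lie near or under 1.

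Between the libraries the high-mt class went the other way from adipocyte nuclei. The member sum was 0.692-fold (0.634 to 0.758) in 1cyc relative to TN, with complex I at 0.634 (0.548 to 0.736), complex III at 0.643 (0.498 to 0.841), complex IV at 0.673 (0.553 to 0.825) and ATP synthase at 0.737 (0.601 to 0.912). Complex II was at 0.910 (0.649 to 1.31) and complex I assembly factors at 1.51 (0.798 to 3.22), and both intervals held 1. Of 32 members measured, 4 were at least 1.5-fold higher and 14 as much lower, against 37.5% and 20% of 2613 genes, with a median log2 ratio of -0.27 beside 0.26. This split depended on the scale: with TMM factors 10 were higher and 6 lower. Cox7c was at 248 and 59.1 CPM (0.238, 0.128 to 0.460), Uqcrh, the hinge subunit of complex III, at 295 and 116 CPM (0.395, 0.235 to 0.695) and Ndufa3 at 217 and 62.5 CPM (0.288, 0.152 to 0.576). Atp5g3 stood at the other end with 1 and 79 UMIs, or 15.5 and 133 CPM (8.59, 1.498 to 344).

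The 2 high-mt classes were unlike in makeup. TN held 84 such barcodes and 1cyc 2275. A single TN barcode of 13226 UMIs, 28.1% of them mt-, held 129 of the 568 member UMIs and 92 UMIs of the endothelial list, and the other 83 gave 7993 CPM (7262 to 8777). The endothelial list summed to 3616 CPM in TN and 326 CPM in 1cyc high-mt barcodes, ribosomal protein genes to 12865 and 3225 CPM, and the macrophage or monocyte list to 1148 and 257 CPM with Cd163 at 0 in TN. Their part in the result was not tested. Without the barcode with the most UMIs in each class the ratio was 0.764, and without the 2% of barcodes with the most UMIs in each library it was 0.902 (0.803 to 1.02). With TMM factors it was 0.938 (0.858 to 1.03), and both of these intervals held 1.

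Mitochondrially encoded subunits of the same complexes were set beside these sums, as a description only, since limits on mt- UMIs define the adipocyte and the high-mt class alike. The 3 mt- genes of complex IV had 25.9 UMIs for each nuclear-encoded complex IV UMI in TN adipocyte nuclei and 18.2 in 1cyc. In high-mt barcodes these quotients were 144 and 205. For the 7 mt- genes of complex I they were 4.82 and 3.19 in adipocyte nuclei and 38.0 and 42.6 in high-mt barcodes, and for the pair of ATP synthase mt- genes 3.24 and 2.36, and 32.7 and 45.1. For all 3 the quotient was lower in 1cyc than in TN adipocyte nuclei and higher in 1cyc than in TN high-mt barcodes.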

How the data were processed

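UMI counts per gene and barcode were used as deposited. They were made with Cell Ranger 3 against mm10, per the submitters' processing notes, and the matrix headers name version 3.1.0; the counting of intronic reads and the annotation version were not given in the sources used here. Each library pooled nuclei of 5 mice, so there is 1 library per condition. Total counts were 2745808 UMIs in 2551 barcodes (TN) and 2469900 in 4321 (1cyc), and 0 columns were unmapped. Barcodes with 5 to under 20% mt- UMIs (1127 and 962) were in no class.

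Counts were summed per class and library and scaled without mt- genes. Ratios have exact conditional binomial, CPM exact Poisson and shares Clopper-Pearson 95% intervals (python 3.11.15, numpy 2.4.6, scipy 1.17.1, pandas 2.3.3). TMM factors came from edgeR 4.0.16 in R 4.3.3. The steps were tested on simulated data. GENCODE M21, which may not be the authors' version, holds 30934 of the 31053 identifiers and 94 of 94 members.

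Named genes were the isoform sets, core subunits, the members of smallest and largest span, and in each comparison the members highest and lowest by the interval bound nearest to 1 (8 and 8 between libraries in adipocyte nuclei, 4 and 4 elsewhere), of which the text gives a selection. Members, classes, gene lists and marker lists were chosen with earlier results of these data known. The alternatives tried were the gate, mt- limits, scale, TMM, minimum UMIs and genes, fold, barcodes with the most UMIs, and members without assembly factors.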

Additional observations from a re-analysis of the deposited data

Results flagged for a closer look

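The summed members went in opposite directions between the libraries in 2 classes. The ratio of 1cyc to TN was 1.14 (1.09 to 1.19) in adipocyte nuclei and 0.692 (0.634 to 0.758) in high-mt barcodes. In high-mt barcodes the ratio was 0.938 (0.858 to 1.03) with TMM factors and 0.902 (0.803 to 1.02) without the 2% of barcodes with the most UMIs, both with intervals that held 1. With 1 library per condition this difference was not tested.

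Barcodes with 5 to under 20% mt- UMIs belonged to no class and entered no comparison. Their member sum was 3674 CPM (3207 UMIs) in 1127 TN barcodes and 4091 CPM (1523 UMIs) in 962 1cyc barcodes, a ratio of 1.11 (1.05 to 1.18).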

How the results depend on the processing

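The member sum ratio stayed on its side of 1 under every alternative run in 6 of the 7 comparisons, and the sum ratio of 1cyc to TN in other nuclei lay on both sides of 1. Between the libraries in adipocyte nuclei the ratio of 1.14 was 1.07 with TMM factors and 1.32 with nuclei under 2% mt-. In other nuclei 1.03 became 1.26 with a gate of at least 2 UMIs, 1.47 under 2% mt-, 0.849 without ribosomal protein and haemoglobin genes and 0.804 with TMM. In high-mt barcodes 0.692 became 0.560 at 50% mt-, 0.902 (0.803 to 1.02) without the 2% of barcodes with the most UMIs, 0.938 (0.858 to 1.03) with TMM, both with intervals that held 1, and 0.764 without the top barcode of each class. The TN ratio of adipocyte to other nuclei, 2.09, became 2.68 and 1.6 with gates of 2 and 8 UMIs, 4.70 under 2% mt-, 1.45 with at least 200 genes, 1.69 without the top 2%, 1.22 without ribosomal protein and haemoglobin genes and 1.51 with TMM. The 1cyc ratio, 2.32, became 1.59 with a gate of 8 UMIs, 4.23 under 2% mt-, 1.59 with 200 genes, 1.93 without the top 2%, 1.57 without ribosomal protein and haemoglobin genes and 1.998 with TMM. For high-mt barcodes against adipocyte nuclei in TN, 2.42 became 2.79 under 2% mt-, 6.53 at 50% mt-, 1.82 without the top 2%, 1.64 with mt- genes in the scale, 1.66 with TMM and 2.17 without the top barcode. In 1cyc 1.47 became 3.21 at 50% mt-, 1.02 with mt- genes in the scale and 1.37 with TMM. The cause was not tested, except that a minimum of UMIs sets how many members are counted. Members past 1.5-fold, 11 between libraries in adipocyte nuclei, were 20 and 4 with minimums of 20 and 100 UMIs, and 2 past 2-fold. In other nuclei 0 became 7 with 20 UMIs. In high-mt barcodes 18 became 54 and 1, 9 past 2-fold, and 1 with barcodes of at least 500 UMIs. For adipocyte against other nuclei 23 became 40 and 14 in TN, and 22 became 45 and 13 in 1cyc. For high-mt barcodes against adipocyte nuclei 20 became 59 and 9 in TN, and 27 became 48 and 11 in 1cyc, 14 past 2-fold and 13 at 500 UMIs. TMM shifted log2 ratios by -0.35 between libraries in other nuclei, 0.44 in high-mt barcodes, -0.47 (TN) and -0.21 (1cyc) for adipocyte against other nuclei, and -0.54 and -0.10 for high-mt barcodes against adipocyte nuclei. Of 129 values of the member sum ratios and counts under an alternative, 79 were classed as unchanged and 50 as moved. Of 176 values of single named members under an alternative, 171 stayed within the interval of the reported value and 1 changed direction, Cox8a at 1.23 under 2% mt-. The intervals of single members are wider than those of the sums. The 500-UMI minimum, the removal of top barcodes and that of nuclei led by another list were chosen after seeing the data. No paired analysis was possible because each condition has 1 library, so no replicate could be left out either. The fewest members, 2, were measured between libraries in other nuclei, and the cause of that was not tested.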
